A study of Oryza sativa with 24 samples.

Results

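The loci described here are those whose transcript level followed that of LOC_Os08g06110 (OsLHY) across 8 groups of rice inflorescences. They were chosen from the counts themselves. Counts were scaled by the library total (CPM), averaged over the 3 libraries of a group, and put on the scale log2(mean CPM + 1). A locus was a member when its overall mean reached 5 CPM and the Pearson correlation (r) of its 8 group values with those of OsLHY was at least 0.9. OsLHY itself and loci of the PRR, GI, ELF3 and LUX families were left out, and leaving these out removed 0 loci. The rule gave 52 members among 26480 loci of the table, or among 16236 loci with values in every library and a mean of at least 5 CPM. A further 17 loci correlated as highly without that minimum and are not members, since 69 loci passed when no minimum was set. Because all 8 group means chose the members, every difference between groups given below is a description of that choice, and no test was made of it.

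All libraries came from the rice (Oryza sativa) line 9522, sampled as inflorescences of 2 mm or 3 mm from the wild type (WT) or the tap mutant, with the treatment given as high or low temperature. The 8 combinations of genotype, length and temperature had 3 libraries each. By the title of the series, panicle and spikelet development at high temperature requires TAP. The sample titles call the mutant ild where the genotype field has tap, and high-temperature columns marked iHT were read as tap, an inference from the WT mark on the remaining columns of that set. The sources used here give no degrees, duration, time of day of sampling or mutated locus. Whether the replicates are separate plants is not labelled either, and p-values therefore cover the spread between libraries, part or all of which may be technical.

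OsLHY belongs to the plant circadian clock. LATE ELONGATED HYPOCOTYL, known mainly from Arabidopsis, is a MYB-type transcription factor whose transcript peaks around dawn and which represses genes expressed later in the day. The PRR genes, GI and the evening complex of ELF3, ELF4 and LUX act at later phases, and several of these factors repress LHY in turn.

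Library totals ran from 19819257 to 21305381 counts. Of 9 loci listed as inflorescence identity genes by identifier, all were in the table and 8 had at least 5 CPM in every group. The high- and low-temperature columns are named in different styles, and any difference in handling cannot be told apart from temperature. Each locus had at least 10 counts in the low-temperature set as a whole, whereas 723 had 0 counts in the high-temperature set, so rows were kept by their low-temperature counts before deposit. Scaling also bears on that contrast: the median of all loci between high and low temperature in 2 mm WT was -0.09 (log2) by library total and 0.07 by TMM-scaled library size. In bulk tissue, fewer cells of a type and less RNA per cell cannot be told apart. The files do not pair identifiers with gene names, and the RefSeq gene table provided matched 0 of them, so members are given by identifier without a function and without sequence.

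OsLHY was highest in the tap mutant at low temperature. There, inflorescences of 3 mm had 790.5, 757 and 765 CPM, and those of 2 mm had 689.9, 719 and 701 CPM. WT inflorescences of 2 mm at high temperature came next, with 556, 546 and 397 CPM. These 3 groups did not overlap with each other or with any other group. Inflorescences of tap of 2 mm at high temperature had 206, 146 and 214 CPM, and each of the following 2 groups overlapped with them. WT of 3 mm at low temperature had 51.0, 192 and 100.4 CPM, and WT of 2 mm at low temperature had 169, 83.1 and 83.2 CPM. At high temperature, tap of 3 mm had 67.8, 85.0 and 118 CPM and WT of 3 mm had 56.1, 60.5 and 51.8 CPM. Of the lower groups, tap of 3 mm at high temperature overlapped with both WT groups of low temperature but not with WT of 3 mm at high temperature. The group means spanned 3.76 on the log2 scale, from 56.1 ± 4.33 CPM (SD, n = 3) to 771 ± 17.3 CPM. The mutant was thus above WT at both lengths at low temperature, whereas at high temperature it was below WT at 2 mm and above WT at 3 mm, in each case without overlap.

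**Figure D1:**
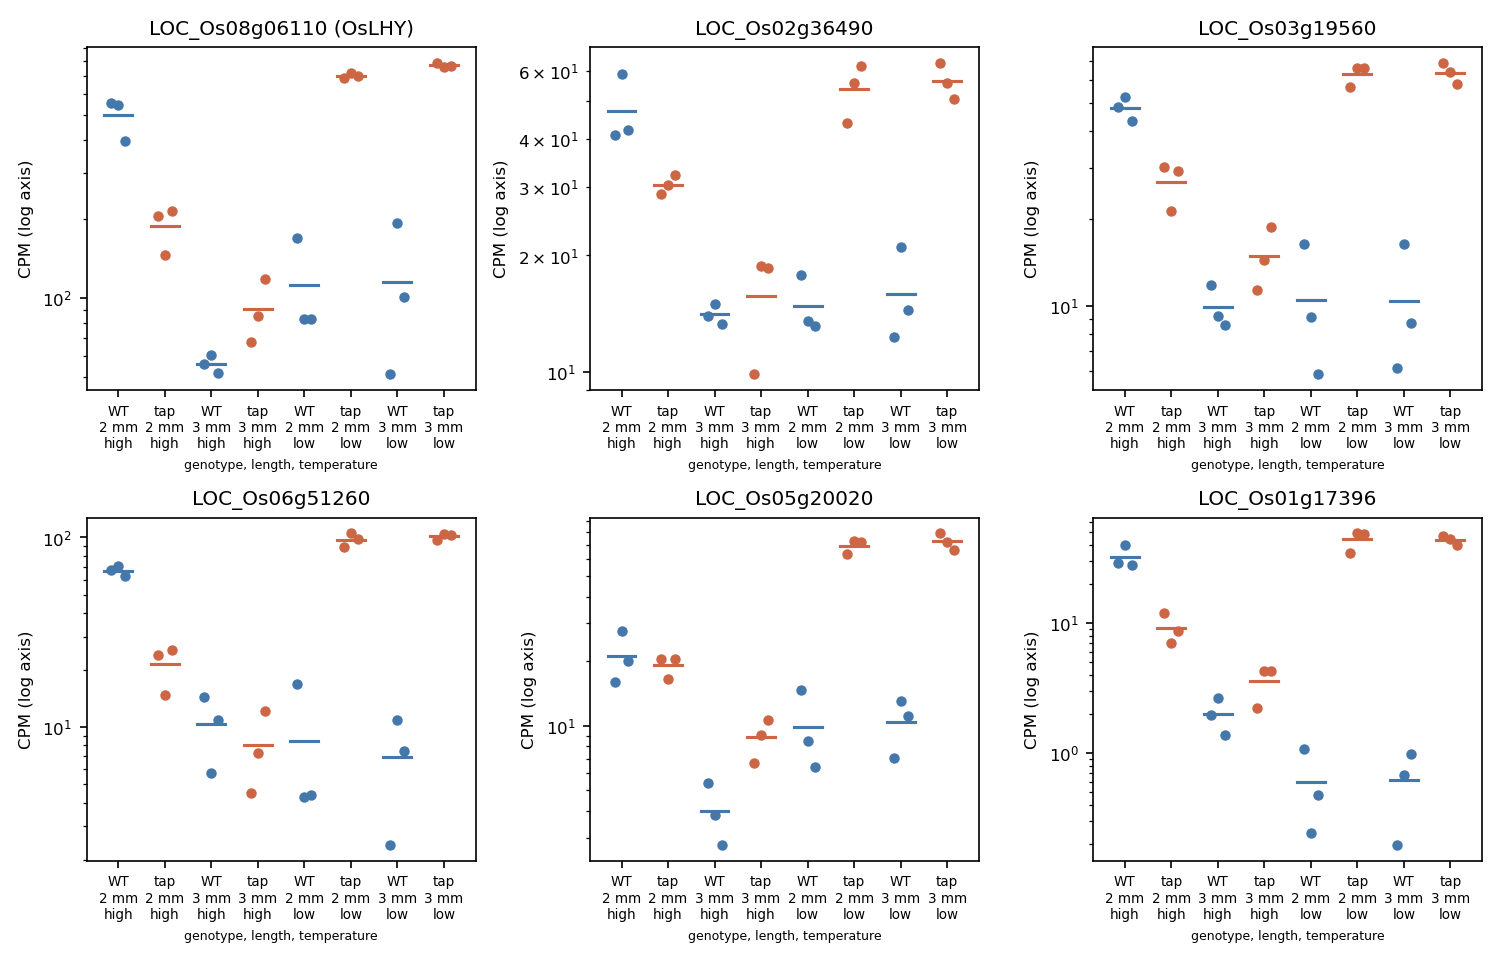
CPM on a log axis for OsLHY and 5 of the members in each of the 24 libraries. Points are libraries, short lines are group means, WT is blue and tap is red, and groups are ordered from high temperature on the left to low temperature on the right. In each panel both tap groups of low temperature and WT of 2 mm at high temperature are the 3 highest groups.

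The members shared this profile closely but differed widely in how far they moved. Their r with OsLHY had a median of 0.928 and ran from 0.9004 to 0.977, and their range of log2 group values had a median of 1.47 and ran from 0.17 to 4.82. Over all loci of at least 5 CPM the median range was 0.84. A range of at least 1 was found in 35 members and a range under 1 in 17, a division made after the values had been seen. The slope of a member on OsLHY over the groups had a median of 0.36, so most members moved less than OsLHY on the log2 scale. Both tap groups were above both WT groups at low temperature in 52 members, and WT of 2 mm was the highest high-temperature group in 49. Both of these counts were the same when library sizes were scaled by TMM. Both 2 mm groups were above both 3 mm groups at high temperature in 46 members. A tap group of low temperature was the highest of all 8 in 52 members by library total and in 44 by TMM-scaled size.

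**Figure D2:**
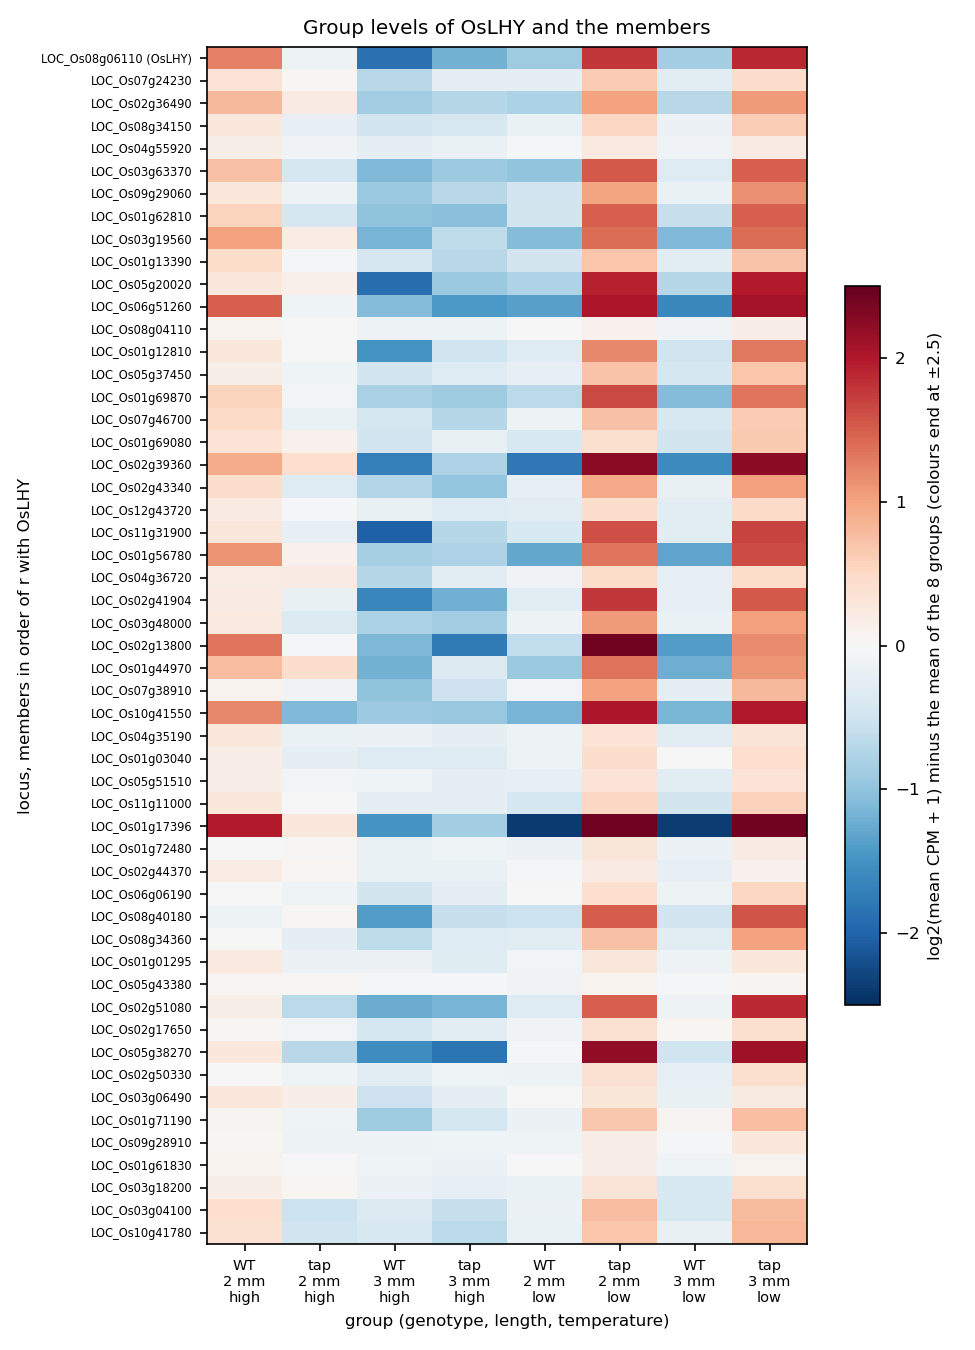
Level of OsLHY and the 52 members in the 8 groups, each row centred on its own mean of log2(mean CPM + 1) and ordered by r with OsLHY. Columns are groups and the colour bar gives the log2 difference from the row mean. Both tap columns of low temperature are above both WT columns of low temperature in all 52 rows, and rows with a range under 1 are pale.

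At the margin of the rule, the lowest r kept were those of LOC_Os03g18200 (0.901), LOC_Os03g04100 (0.901) and LOC_Os10g41780 (0.9004). The highest r not kept were those of LOC_Os04g58060 (0.898), LOC_Os01g52640 (0.898) and LOC_Os04g48880 (0.897). LOC_Os01g52640 resembled the members at low temperature, with group means of 91.0 and 85.9 CPM in tap against 39.9 and 36.4 CPM in WT. Its highest high-temperature group was WT of 2 mm, with a mean of 62.9 CPM. It departed from OsLHY in the 3 mm inflorescences of high temperature, where tap was the lower genotype without overlap. The libraries there had 21.0, 18.2 and 29.1 CPM (tap) against 38.3, 33.8 and 33.2 CPM (WT). Its high-temperature mean in tap of 2 mm, 33.1 CPM, was also below that in WT of 3 mm, 35.1 CPM.

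The member of highest r, LOC_Os07g24230 on chromosome 7, was of low abundance. It had 11.3, 8.78 and 10.1 CPM in tap of 2 mm and 5.54, 4.03 and 5.49 CPM in WT of 2 mm at low temperature, and the groups did not overlap. LOC_Os02g36490 (r = 0.975) on chromosome 2 was more abundant and had a wider range. At low temperature it had 44.0, 55.8 and 61.8 CPM in tap of 2 mm and 17.8, 13.6 and 13.1 CPM in WT of 2 mm. At high temperature WT of 2 mm had 41.0, 58.7 and 42.2 CPM, tap of 2 mm had 28.8, 30.4 and 32.3 CPM and WT of 3 mm had 14.0, 15.01 and 13.3 CPM. The 3 high-temperature groups named did not overlap, in the same order as OsLHY. Tap of 3 mm at high temperature, with 9.86, 18.8 and 18.5 CPM, overlapped with WT of 3 mm, whereas in OsLHY these groups did not overlap.

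The widest range belonged to LOC_Os01g17396 on chromosome 1, at 4.82 on the log2 scale. In WT at low temperature it was close to 0, with 1.08, 0.243 and 0.477 CPM at 2 mm and 0.194, 0.676 and 0.982 CPM at 3 mm. In tap at low temperature it had 34.8, 48.9 and 48.9 CPM at 2 mm and 47.1, 44.2 and 40.1 CPM at 3 mm. WT of 2 mm at high temperature, with 29.1, 39.7 and 27.8 CPM, overlapped with the 2 mm tap libraries of low temperature. Its log2 differences between tap and WT at low temperature, 4.82 at 2 mm and 4.79 at 3 mm, were the largest of any member.

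LOC_Os02g39360 on chromosome 2 had a range of 4.04. It had 185, 173 and 172 CPM in tap of 2 mm and 15.1, 7.48 and 6.97 CPM in WT of 2 mm at low temperature. WT of 2 mm at high temperature, at 69.9, 80.7 and 60.2 CPM, lay between these without overlap. LOC_Os05g38270 on chromosome 5 (range 4.05) had 63.5, 78.0 and 68.6 CPM in tap of 2 mm at low temperature. There its WT libraries of 2 mm had 24.8, 8.65 and 8.16 CPM, and the first of these was also the highest in OsLHY. In this locus WT of 2 mm at high temperature, at 18.3, 18.3 and 15.3 CPM, overlapped with WT of 2 mm at low temperature. LOC_Os05g20020 (range 3.88) and LOC_Os11g31900 (range 3.72) showed the same arrangement, with means in tap at low temperature above all other groups.

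LOC_Os02g13800 on chromosome 2 differed from OsLHY in the length contrast of the mutant. It had 36.6, 35.6 and 37.8 CPM in tap of 2 mm and 16.2, 12.8 and 16.5 CPM in tap of 3 mm at low temperature, which did not overlap, whereas OsLHY was slightly higher at 3 mm. At low temperature it was the only member of which the mutant had less at 3 mm by at least 1 on the log2 scale with no overlap. LOC_Os10g41550 on chromosome 10 had the largest difference between tap and WT at 2 mm and high temperature. It had 1.60, 0.654 and 1.01 CPM in tap and 12.5, 10.3 and 5.38 CPM in WT, a log2 difference of -2.31. LOC_Os03g63370 was also lower in tap there, with 3.39, 1.86 and 4.44 CPM in tap and 9.32, 9.21 and 7.04 CPM in WT. Its log2 difference was smaller in size, at -1.17. LOC_Os01g17396, at -1.71, LOC_Os06g51260, at -1.59, and LOC_Os02g13800, at -1.39, lay between these loci.

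The most abundant members included some of wide and some of narrow range. LOC_Os02g41904 had 483, 488 and 481 CPM in tap of 2 mm and 161, 98.1 and 94.2 CPM in WT of 2 mm at low temperature. LOC_Os08g40180 had 315, 342 and 333 CPM and 94.7, 73.8 and 67.3 CPM in these groups. Both were lowest in WT of 3 mm at high temperature. LOC_Os08g40180 departed from OsLHY at 2 mm and high temperature, where it had 121, 101 and 127 CPM in tap and 109, 113 and 89.6 CPM in WT, which overlapped. By contrast, LOC_Os04g55920 had a range of only 0.47. It had 231, 216 and 230 CPM in tap of 2 mm and 190, 182 and 186 CPM in WT of 2 mm at low temperature. LOC_Os02g44370 (range 0.41) had 174, 170 and 174 CPM against 138, 146 and 149 CPM. LOC_Os01g72480 (range 0.47) had 108, 110 and 116 CPM against 86.8, 81.4 and 77.2 CPM. In these 3 loci the groups did not overlap although the means differed little.

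A locus was counted as different between 2 groups when their libraries did not overlap and the log2 difference was at least 1. For tap against WT at low temperature, 24 members were higher in tap at 2 mm, where 0.893% of all loci of at least 5 CPM met the same criterion, and 30 were higher at 3 mm, where 0.887% did. The members' median log2 difference was 0.94 at 2 mm and 1.08 at 3 mm, beside 2.64 and 2.74 for OsLHY. For tap against WT at high temperature, 6 members were lower in tap at 2 mm, where 1.58% of all loci did so, and the median difference was -0.36 beside -1.40 for OsLHY. At 3 mm and high temperature 1 member, LOC_Os11g31900, was higher in tap, where 2.31% of all loci were. It had 6.38, 13.4 and 11.4 CPM in tap and 3.01, 4.02 and 3.70 CPM in WT. In the opposite direction 0 members were counted in these 4 pairs, where 1.08% and 0.665% of all loci were lower in tap at low temperature, while at high temperature 2.2% were higher in the mutant at 2 mm and 2.16% were lower at 3 mm. All counts of this kind restate the rule, and nothing is read from them.

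Some of the 9 loci listed as inflorescence identity genes also differed between the genotypes, and the files give no function for them. By the same criterion, 3 of the 9 were lower in the mutant at high temperature, at both lengths. Of all loci of at least 5 CPM, 1.58% were lower at 2 mm and 2.16% at 3 mm. At high temperature 0 of the 9 were higher, while at low temperature 0 of 9 differed in either direction. At 2 mm and high temperature LOC_Os03g11614 had 52.4, 61.3 and 54.0 CPM in tap against 297, 301 and 318 CPM in WT. LOC_Os02g45770 had 15.8, 16.7 and 12.97 CPM against 102, 98.8 and 92.6 CPM, and LOC_Os03g11600 had 8.85, 12.9 and 10.1 CPM against 81.2, 81.5 and 98.8 CPM. With no minimum difference, 2 of the 9 were higher in tap (21.8% of all loci) and 4 lower (24.6%) at 2 mm and high temperature. At 3 mm and high temperature 2 were higher (21.2%) and 3 lower (25.9%). The higher ones included LOC_Os03g51690, with 610, 638 and 693 CPM in tap and 472, 577 and 457 CPM in WT at 2 mm. At low temperature 4 were higher (20.5%) and 0 lower (22.5%) at 2 mm. The counts at 3 mm were 6 higher (20.6%) and 1 lower (16.8%). None of the 9 was at 0 in any group mean. Their summed level at 2 mm was 1384 to 1573 CPM in tap and 1633 to 1776 CPM in WT at high temperature, and 1878 to 1985 CPM in tap and 1384 to 1532 CPM in WT at low temperature. At 3 mm it was 1226 to 1407 CPM in tap and 1261 to 1445 CPM in WT at high temperature, and 1537 to 1620 CPM and 1174 to 1329 CPM at low temperature. The sum was thus below WT at 2 mm and high temperature, above WT at both lengths at low temperature, and overlapped at 3 mm and high temperature. Abundant loci weigh most in it. At 2 mm and low temperature LOC_Os03g51690 had means of 634 CPM in tap and 420 CPM in WT. LOC_Os04g51000 had means of 486 and 278 CPM there. By contrast, LOC_Os01g61480, LOC_Os10g33780 and LOC_Os03g11600 had lower means in tap than in WT in that pair. The part of the sum in the differences of the members was not tested.

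Between temperatures the members differed in direction by genotype at 2 mm. In WT of 2 mm 13 members were higher at high temperature (4.77% of all loci) with a median difference of 0.47, while in tap of 2 mm 23 were lower (13.1%) with a median of -0.85. In tap of 3 mm 31 members were lower at high temperature (13.5%) with a median of -1.33. In WT of 3 mm 6 were lower (12.3%), and the median difference was -0.13 by library total and -0.01 by TMM-scaled size. With TMM-scaled size 25 members of WT of 3 mm were above 0 and 27 below, against 15 and 37 by library total, so no common direction is given for that pair. Between lengths, 24 members were lower at 3 mm in WT at high temperature (0.517% of all loci), with a median of -0.91, and 7 in tap (0.166%), with a median of -0.38. At low temperature the lengths differed in 0 members in WT, where 0.0616% of all loci were higher and 0.037% lower at 3 mm. In tap they differed in 1, lower at 3 mm, as did 0.0924% of all loci. In the opposite directions 0 members were counted. The shares of all loci there were 11.9% and 5.7% for WT of 2 mm and 3 mm and 6.71% and 6.06% for tap of 2 mm and 3 mm between temperatures, and 0.265% for WT and 0.0185% for tap at high temperature and 0.142% for tap at low temperature between lengths. Comparisons with a group in common share its libraries.

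The profile was also present inside each temperature. Over the 4 high-temperature groups the r of a member with OsLHY had a median of 0.948, and 41 members had at least 0.9, beside 2.75% of all loci. Over the 4 low-temperature groups the median was 0.989 and 51 members had at least 0.9, beside 18.0% of all loci. There the 4 values fall into a high tap pair and a low WT pair, so that any locus with a steady difference between the genotypes has a high r of either sign. At least 0.9 in both was reached by 40 members. These values come from the means that chose the members and are a description.

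What the rule did not use is how replicates of 1 group differ from each other. For each of the 24 libraries the deviation of OsLHY from its group mean was computed on log2 CPM with TMM-scaled library size, and the same was done for each locus. The r of these deviations between a member and OsLHY had a median of 0.561, and 31 of 52 members exceeded 0.5. Over all loci of at least 5 CPM, OsLHY left out, the median was 0.017, and 2.48% exceeded 0.5. Members above 0 numbered 49. As Spearman's rho the median was 0.563 for members and 0.025 over all loci. These are descriptions over 24 libraries that are shared by all loci.

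**Figure D3:**
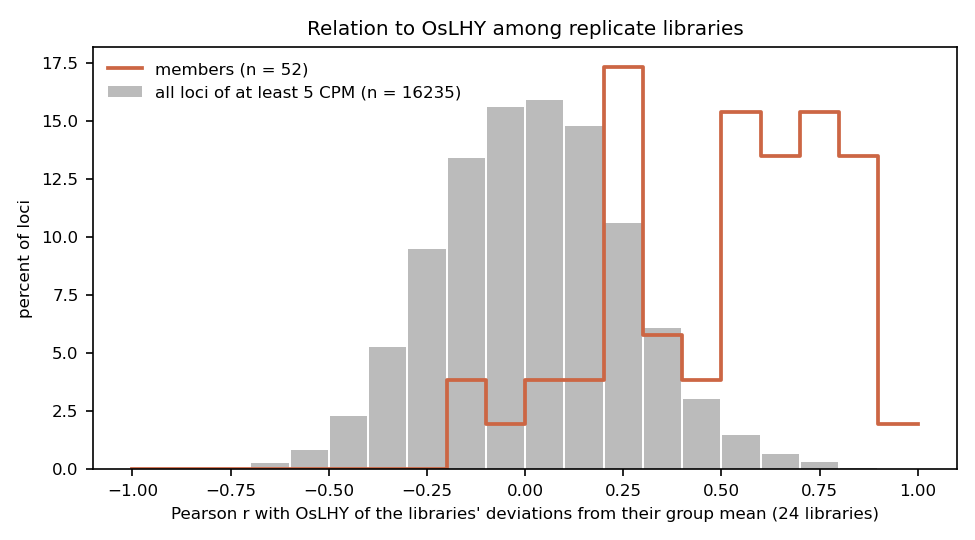
Distribution of the correlation with OsLHY among replicates, after removal of group means, over 24 libraries. The x axis is r and the y axis the percent of loci per bin for all loci of at least 5 CPM and for the 52 members. All loci centre near a median of 0.017 and the members near 0.561.

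The deviations were unequal between groups. WT of 3 mm at low temperature held 57.5% of the within-group sum of squares of OsLHY and WT of 2 mm at low temperature 21.3%, while both tap groups of low temperature held under 0.05% each. In WT of 3 mm at low temperature, replicate 1 was 0.97 below and replicate 2 was 0.97 above the group mean in OsLHY on the log2 scale. In replicate 1 only 9 of 52 members were above their own group mean, and in replicate 2 there were 47. In WT of 2 mm at low temperature replicate 1 was 0.68 above in OsLHY, and 46 members were above their mean. In replicates 2 and 3 of that group OsLHY was below, and 7 and 12 members were above their mean. At high temperature the same direction was seen in tap of 3 mm, where replicate 1 was lowest in OsLHY and 7 members were above their mean. Replicate 2 there was 0.03 above in OsLHY with 41 members above their mean. Replicate 3 was farther above in OsLHY, at 0.39, but with fewer members above, 37. In tap of 2 mm at high temperature replicate 2 was 0.34 below in OsLHY with 13 members above their mean. Replicate 3 of that group was 0.23 above with 44, and replicate 1 was 0.11 above with 26. The WT groups of high temperature did not show it throughout. In WT of 2 mm replicate 1 was 0.17 above in OsLHY and 23 members were above their mean. Replicate 2 there was 0.15 above with 47 members above their mean, and replicate 3 was 0.32 below with 14. In WT of 3 mm replicate 2 was highest in OsLHY, at 0.12 above, with 23 members above their mean, while replicates 1 and 3 were below in OsLHY with 32 and 31 members above. The median deviation of all loci in a library was at most 0.03 in size.

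The relation was tested for every locus with edgeR's quasi-likelihood F test, in a model with a mean for each group and a slope on the OsLHY deviation, which left 15 residual degrees of freedom. At a Benjamini-Hochberg adjusted p under 0.05 over 23657 loci, 27 loci (0.114%) had a positive slope and 4 (0.0169%) a negative one. Among loci of at least 5 CPM 24 (0.148%) had a positive slope. Members made up 13 of the 27 positive loci and none of the 4 negative ones. Unadjusted p under 0.05 with a positive slope was found in 29 members and in 2.47% of all loci tested. Of the 13 called members 12 had a range of at least 1 over the groups.

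LOC_Os03g19560 on chromosome 3 had the smallest p of all loci. In WT of 3 mm at low temperature it had 6.12, 16.4 and 8.74 CPM in replicates 1, 2 and 3, where OsLHY had 51.0, 192 and 100.4 CPM. In WT of 2 mm at low temperature it had 16.4, 9.18 and 5.82 CPM, and in tap of 3 mm at high temperature it had 11.4, 14.4 and 18.7 CPM. By library-total CPM, in these 3 groups and in both tap groups of low temperature, its highest library was the one highest in OsLHY. This did not hold at high temperature in WT of 2 mm, tap of 2 mm or WT of 3 mm. With TMM-scaled size, on which the test rests, tap of 2 mm changed at both temperatures. The highest libraries of the 2 loci then differed at low temperature and matched at high temperature. Its slope was 0.84 ± 0.09 (SE; log2 per log2 of OsLHY, n = 24; edgeR adjusted p = 1.24e-05), close to its slope of 0.76 over the group means.

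LOC_Os06g51260 on chromosome 6 had the steepest slope of the called members, 1.27 ± 0.20 (edgeR adjusted p = 0.0177). In WT of 3 mm at low temperature it had 2.38, 10.9 and 7.51 CPM, and in WT of 2 mm at low temperature 16.8, 4.28 and 4.39 CPM. The order of the libraries matched that of OsLHY in the first group, and replicate 1 was highest in both loci in the second. LOC_Os01g56780 had a slope of 0.69 ± 0.10 and LOC_Os02g51080 a slope of 0.61 ± 0.09 (edgeR adjusted p = 0.000405 for each). LOC_Os02g39360 had a slope of 0.79 ± 0.11 (edgeR adjusted p = 0.000422). LOC_Os05g38270, at 0.83 ± 0.12, LOC_Os01g62810, at 0.55 ± 0.08, and LOC_Os08g40180, at 0.44 ± 0.07, had an edgeR adjusted p of 0.000813 each. The other 5 called members, LOC_Os11g31900, LOC_Os02g41904, LOC_Os01g13390, LOC_Os03g18200 and LOC_Os05g20020, had slopes of 0.39 to 0.61 and edgeR adjusted p of 0.026 to 0.0433.

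**Figure D4:**
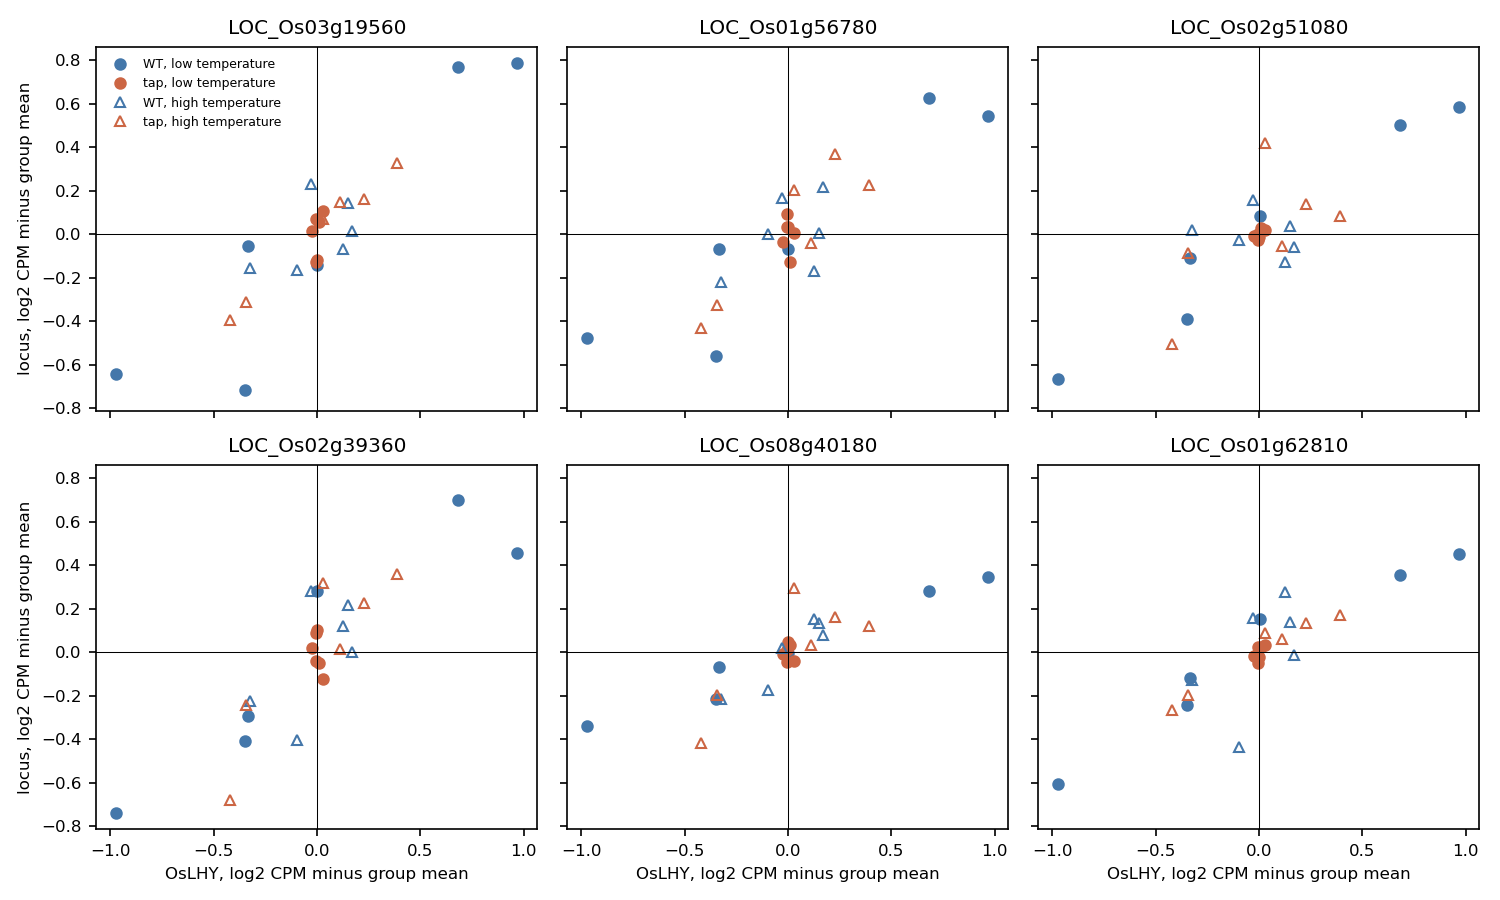
Deviation of each of the 24 libraries from its group mean on the log2 scale, OsLHY on the x axis and the locus on the y axis, for the 6 members of smallest p in the test of this relation. Blue is WT and red is tap, circles are low temperature and triangles high temperature. The points farthest from 0 on the x axis, at -0.97 and 0.97, are WT libraries of 3 mm at low temperature, and in every panel the first lies below 0 and the second above 0.

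Members of high r over the groups were not all called in the test among replicates, and a locus not called may still be related to OsLHY. LOC_Os07g24230, the member of highest r, had a slope of 0.12 ± 0.13, and LOC_Os08g34150 (r = 0.971) one of 0.08 ± 0.08, neither called by edgeR. LOC_Os01g17396, of the widest range, had a slope of 0.94 ± 0.23 and was not called (edgeR adjusted p = 0.181, unadjusted p = 0.000445). Its r among replicates was 0.750. Members with a range of at least 1 had a median r among replicates of 0.653, and those with a range under 1 had 0.334. The narrow members also depended on scaling: with TMM-scaled library size 33 of 35 wide members and 6 of 17 narrow members still reached an r of 0.9 over the groups. LOC_Os05g43380, of narrow range, had an r of 0.358 under the least favourable of the other scalings.

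**Figure D5:**
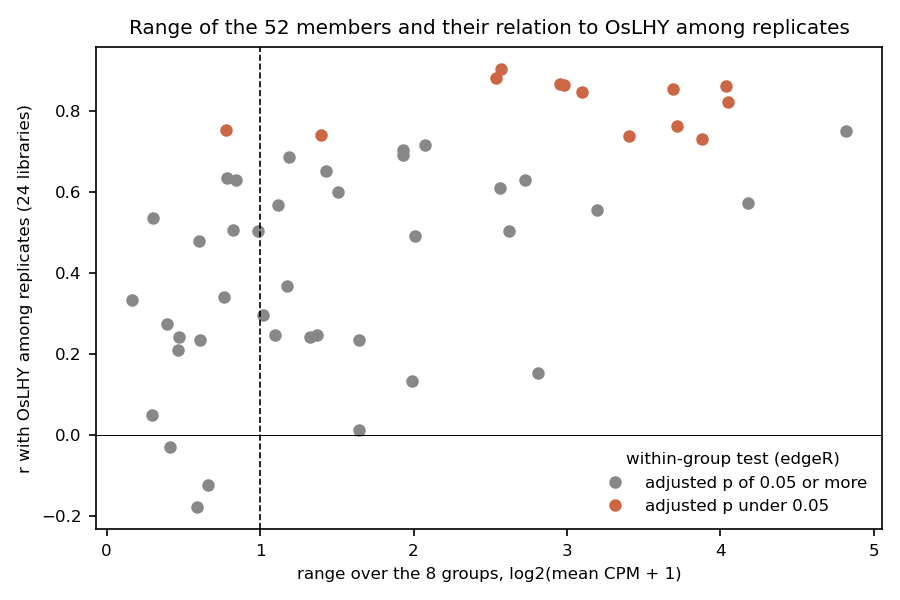
Range over the 8 groups on the log2 scale against r with OsLHY among replicates over 24 libraries, for the 52 members. Red points are the 13 members called by edgeR and the dashed line marks a range of 1. Of the red points 12 lie to the right of the line.

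The calls rested on a few libraries. Leaving out 1 library at a time gave 5 to 13 called members, with 5 when replicate 1 of WT of 3 mm at low temperature was left out, 7 without any single WT library of 2 mm at low temperature, and 8 without replicate 1 of tap of 3 mm at high temperature. LOC_Os03g19560, LOC_Os01g56780, LOC_Os02g39360, LOC_Os05g38270 and LOC_Os08g40180 were called in all 24 such fits. Without the 2 libraries farthest in OsLHY, replicates 1 and 2 of WT of 3 mm at low temperature, the median r among replicates was 0.579 and these 5 members were called, of 10 positive loci in all. With the high-temperature libraries alone edgeR called 0 loci. Unadjusted p under 0.05 with a positive slope was then found in 16 members by edgeR, beside 1.04% of all loci, and in 17 by DESeq2, beside 0.833%, which called 0 members and 1 other locus (0.00389%). With the low-temperature libraries alone edgeR called 14 members and 57 loci with a positive slope (0.247%), and 28 members had an unadjusted p under 0.05, beside 2.92% of all loci. Without all 6 WT libraries of low temperature edgeR and DESeq2 also called 0 loci, and 20 members by edgeR, beside 1.96% of all loci, and 22 by DESeq2, beside 1.98%, had an unadjusted p under 0.05 with a positive slope. Within the high-temperature set the median r among replicates was 0.509 for members and 0.060 over all loci, and within the low-temperature set 0.646 and -0.00.

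The left-out clock loci, whose identifiers come from general rice gene nomenclature and not from the files, had a negative r with OsLHY over the groups in 9 of 9, with a median of -0.743. It was most negative in LOC_Os09g36220 (PRR95), at -0.928, and LOC_Os01g08700 (GI), at -0.908, and weakest in LOC_Os07g49460 (PRR37), at -0.05, LOC_Os06g05060 (ELF3-1), at -0.303, and LOC_Os01g38530 (ELF3-2), at -0.411. LOC_Os01g08700 had 77.6, 104 and 120.0 CPM in tap of 2 mm and 681, 841 and 883 CPM in WT of 2 mm at low temperature. Among replicates the r with OsLHY had a median of -0.248 and was below 0 in 6 of 9. It was -0.762 for LOC_Os01g74020 (LUX) and -0.611 for LOC_Os02g40510 (PRR1), near 0 for PRR37 (0.05) and LOC_Os03g17570 (PRR73, -0.05), and 0.650 for ELF3-1.

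Identifiers are numbered along the chromosomes, and by them the members lay on all 12 chromosomes. Chromosome 1 held 13 members, 25% of them, beside 14.2% of all loci of at least 5 CPM, and chromosome 2 held 9, or 17.3% beside 12.1%. No members were numbered as neighbours: 0 members lay within 50 identifier numbers of another, and the closest pair, LOC_Os09g28910 and LOC_Os09g29060, lay 150 apart. The sources name no strand setting, so reads of a member and of a locus overlapping it on the other strand cannot be told apart.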

How the data were processed

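The authors deposited raw read counts per locus in 1 table, which was used as it stands; the submitters' processing notes name HTSeq, HISAT2 and Trimmomatic with build IRGSP-1.0, while their versions, the annotation and the strand setting are not stated in the sources used. Per the labels' protocols, RNA came from an RNeasy kit and libraries from a SMARTER mRNA-Seq kit. Of 26480 loci, 70 had no value in the high-temperature columns and were left out, leaving 26410. Totals were 19819257 to 21305381 counts. Replicates differed by more than counting noise, with chi-square per degree of freedom of 3.37 to 29.4.

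Members were chosen with library-total CPM, a pseudocount of 1 and r of at least 0.9. The members, the lists and the rules were chosen with earlier results of these data known. Loci named are OsLHY, the members of highest r, widest range, highest mean, lowest r kept and smallest within-group p, the extremes of each tap and WT comparison, the nearest loci not kept, and the loci left out by name. The within-group test used edgeR 4.0.16 (limma 3.58.1, R 4.3.3) with TMM and filterByExpr; log2 CPM used a prior count of 2. DESeq2 1.42.0, other scalings, filters, pseudocounts, a replicate block, and each library or group left out were alternatives. On simulated counts of 23501 loci for this test, 81% of 100 loci with a slope of size 0.5 and 98% of 100 with size 1 were recovered. These slopes were positive or negative, and 12 unchanged loci were called. Only loci of at least 5 CPM were given a slope, and each count was drawn independently. Variation shared between loci was thus not simulated, and the shares recovered need not hold for the real libraries. Promoter motifs were not analysed here. Python 3.11.15, numpy 2.4.6 and pandas 2.3.3 were used.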

Additional observations from a re-analysis of the deposited data

Results flagged for a closer look

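In OsLHY and 30 members every library of tap lay below every WT library at 2 mm and high temperature, and above them at 2 mm and low temperature. Of all 16236 loci of at least 5 CPM, 4.87% did the same and 4.57% did so with the directions exchanged. These comparisons chose the members, so the difference between temperatures was not tested. As the log2 difference of tap and WT at high temperature minus that at low temperature, it was -4.05 for OsLHY (LOC_Os08g06110). Among the named members of widest opposition it was -6.53 for LOC_Os01g17396, -5.51 for LOC_Os10g41550, -4.97 for LOC_Os06g51260, -4.56 for LOC_Os02g39360 and -4.41 for LOC_Os02g13800. It was -3.69 for LOC_Os03g63370, -3.63 for LOC_Os01g56780, -3.30 for LOC_Os03g19560, -3.22 for LOC_Os05g38270, -2.94 for LOC_Os01g62810, -2.65 for LOC_Os02g51080, -2.49 for LOC_Os11g31900 and -2.41 for LOC_Os02g36490. The smaller values were -1.89 for LOC_Os03g04100, -1.87 for LOC_Os09g29060, -1.74 for LOC_Os10g41780, -1.63 for LOC_Os01g13390, -1.16 for LOC_Os08g34150, -0.52 for LOC_Os04g55920 and -0.39 for LOC_Os02g44370. At 3 mm 2 members were opposed in this way, beside 4.77% of all loci, and the named member among them is LOC_Os10g41780, at -1.30.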

How the results depend on the processing

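The rule gave 47 to 55 loci under other scalings, pseudocounts and averaging. With TMM-scaled size 39 of the 52 members were among the 49 loci passing, and with DESeq2 size factors 40 were among 47. The rule gave 43 to 59 loci with a library left out (41 to 51 of the 52 members), and 33 at a minimum of 20 CPM, all members. Spearman's rho kept 27 members. Without a group, the most loci passed without WT of 2 mm (156) or WT of 3 mm (101) at high temperature; without tap of 2 mm or of 3 mm at low temperature, 34 loci (30 members) and 36 loci (33 members) passed.

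In the within-group test, 0 members and 0 loci were called by edgeR with the high-temperature libraries alone or without the WT libraries of low temperature, and 0 members by DESeq2 in both cases, with 1 and 0 loci. Low-temperature libraries alone gave 57 positive loci, DESeq2 on all libraries 65, and the fit without the 2 libraries farthest in OsLHY 10, with 5 members. With a library left out, 5 to 13 members and 7 to 30 loci were called, and the median r among replicates was 0.484 to 0.593. Same-numbered libraries of different groups had a median correlation of deviations of -0.00 (84 pairs), and 20 exceeded 0.1. For libraries of different number the median was 0.003 (168 pairs), and 31 exceeded 0.1. Such medians cannot exclude pairing between some groups. With the replicate block, 16 positive loci and 9 members were called. The settings added after seeing the data were Spearman's rho of the deviations and the fits without the WT libraries of low temperature, without the 2 farthest libraries, and by DESeq2 on subsets.

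With no minimum difference, and with the share of all loci of at least 5 CPM in brackets, tap against WT at high temperature gave 30 members lower at 2 mm (24.6%) and 11 higher (21.2%) and 2 lower (25.9%) at 3 mm. At low temperature it gave 50 higher at 2 mm (20.5%) and 51 at 3 mm (20.6%). High against low temperature gave 35 higher in WT of 2 mm (30.4%), 3 higher (33.5%) and 18 lower (38%) in WT of 3 mm, and 47 lower in tap of 2 mm (42.7%) and 50 in tap of 3 mm (42.6%). At 3 mm against 2 mm, 47 were lower in WT (11.5%) and 28 in tap (8.99%) at high temperature. At low temperature 2 were higher (4.77%) and 3 lower (8.3%) in WT, and 4 higher (12.7%) and 5 lower (11.6%) in tap. TMM gave 3 members higher in tap of 3 mm at high temperature and 3 lower in WT of 3 mm at high temperature. With a library left out, tap against WT at high temperature gave 4 to 9 lower at 2 mm and 1 to 4 higher at 3 mm, WT of 3 mm at high against low temperature gave 0 to 1 higher and 3 to 8 lower, and tap of 3 mm against 2 mm at high temperature gave 3 to 10 lower. The cause of these shifts was not tested.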

Other observations

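Outside the members, 14 loci had a positive slope on OsLHY among replicates by edgeR's test; they are named here because of that result. Of these 11 had at least 5 CPM, and their r with OsLHY over the 8 groups ran from -0.27 to 0.886, with a median of 0.747. LOC_Os03g27019 (r = 0.886), LOC_Os02g49680 (r = 0.870) and LOC_Os06g39240 (r = 0.861) came nearest to membership. LOC_Os03g58970 had a slope of 0.35 ± 0.07 (edgeR adjusted p = 0.0475) while its r over the groups was -0.271.

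The 4 loci with a negative slope were LOC_Os10g25060, LOC_Os03g08580, LOC_Os04g58730 and LOC_Os01g53220. LOC_Os10g25060 had a slope of -0.94 ± 0.13 (edgeR adjusted p = 0.000405) and an r over the groups of -0.916. A set of 60 loci with r of -0.9 or lower over the groups was formed after seeing the data and includes GI and PRR95. It had a median r with OsLHY among replicates of -0.293. Of its loci 10 were under -0.5, beside 1.16% of all loci of at least 5 CPM. LOC_Os10g25060, LOC_Os03g08580 and LOC_Os04g58730 belong to that set.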
